A study of Rattus norvegicus with 6 samples.

Results

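The MHC class II genes of rat lung were followed in control rats and in rats with bleomycin-induced pulmonary fibrosis (PF model). The 8 members were taken by name as RT1-Da, RT1-Db1, RT1-Ba, RT1-Bb, RT1-DMa, RT1-DMb, Cd74 and Ciita, and all 8 were found among the 21655 named genes of the transcript table. The animals were Sprague-Dawley rats, an outbred stock, aged 7 weeks at the start. The 3 PF model rats received 7 mg/kg of bleomycin in a single instillation into the trachea, the 3 control rats received saline by the same route, and the lungs were taken on day 28. One rRNA-depleted RNA library of paired reads of 150 bases was made from the whole lung tissue of each rat. One dose and one time point were sampled, and how the sequenced rats were picked from the treated groups is not given in the sources used here.

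MHC class II molecules are dimers of an alpha and a beta chain that present peptides from endocytosed proteins to CD4+ T cells. In the rat, RT1-D and RT1-B are the classical class II molecules, RT1-DM helps peptides to load in the endosome, and Cd74 encodes the invariant chain, which escorts new dimers and blocks their groove on the way. Ciita encodes the transactivator without which most class II promoters stay silent, and in lung the products are known from dendritic cells, B cells, macrophages and alveolar type 2 cells.

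Class II promoters are known for an X box, read by the RFX complex with CREB beside it, and a Y box, an inverted CCAAT letter group read by NF-Y, and Ciita is recruited by the proteins bound there. The stretches that hold these letters are shown because the Y box letters are common to the classical chains and RT1-DMa, and most of these also hold the X box letters. RefSeq promoter windows of GRCr8, which run from 250 bases before to 50 bases after the annotated start, were given for 6 of the 8 members (all but RT1-DMb and Ciita). Motifs were searched on both strands: ACNGATG for the X box, TGATTGG for the Y box, TGACGTCA for a CREB site (CRE), and the CCAAT core ATTGG, which is part of the Y box motif. Capitals mark the motifs, and each stretch is read 5′ to 3′ on the strand of its gene.
RT1-Da, chr20:4515321-4515385, plus strand: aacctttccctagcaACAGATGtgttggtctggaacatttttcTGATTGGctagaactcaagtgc
RT1-Db1, chr20:4560223-4560286, minus strand: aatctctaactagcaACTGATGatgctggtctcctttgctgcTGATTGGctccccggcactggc
RT1-Ba, chr20:4576973-4577033, plus strand: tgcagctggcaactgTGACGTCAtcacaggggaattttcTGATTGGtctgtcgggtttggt
RT1-Bb, chr20:4604160-4604223, minus strand: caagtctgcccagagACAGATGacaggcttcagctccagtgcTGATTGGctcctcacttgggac
RT1-DMa, chr20:4712380-4712444, minus strand: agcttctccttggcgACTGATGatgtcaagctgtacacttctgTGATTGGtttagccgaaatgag
Cd74, chr18:56527002-56527036, plus strand: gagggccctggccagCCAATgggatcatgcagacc

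The Y box letters were in 5 of the 6 windows, against 7.06% of the 33469 promoter windows of the table. The X box letters were in 4 of the 6, against 10.2% of all windows. In RT1-Da, RT1-Db1, RT1-Bb and RT1-DMa the X box letters came first, and 20 or 21 bases lay between them and the Y box letters. That order on the gene strand was found in 43 of all windows (0.128%), and that order with 20 or 21 bases between in 4 (0.012%), which were those 4 members. The letters and the spacing were chosen with the members' sequences in view, so these shares describe the set. RT1-Ba held the CRE letters (1.83% of all windows) upstream of its Y box letters, and the X box letters as searched were not found in its window. An X box with other letters would be missed by this search, so RT1-Ba is not shown to lack one. In the Cd74 window only the CCAAT core, found in 37.5% of all windows, was present, on the opposite strand and from position -189 to -185 of the start. A match of letters is a description of the window and not a binding site.

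**Figure D1:**
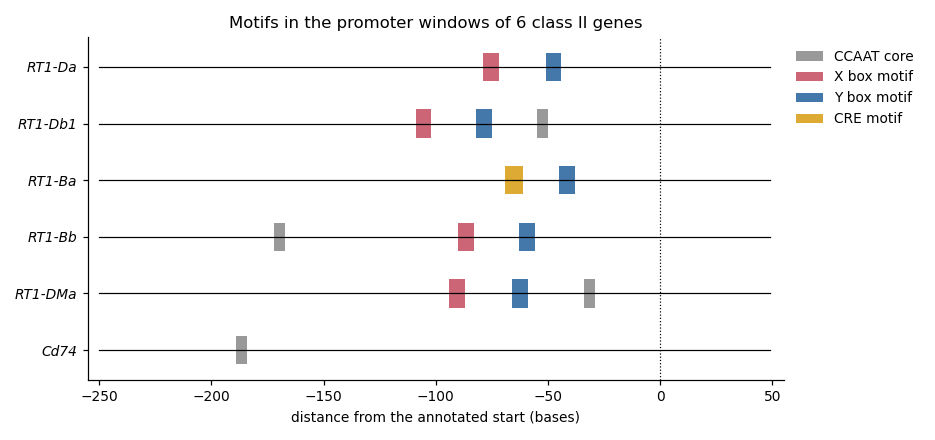
Position of the motifs (coloured blocks) in the promoter windows of 6 class II genes, as distance in bases from the annotated start (dotted line). RT1-Da, RT1-Db1, RT1-Bb and RT1-DMa show an X box motif 20 or 21 bases before a Y box motif, RT1-Ba a CRE motif before its Y box motif, and Cd74 the CCAAT core alone.

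In the coordinates of the deposited table, whose genome build is not given in the sources used here, RT1-Bb (4039413-4049711), RT1-Ba (4066132-4070721), RT1-Db1 (4087618-4097190) and RT1-Da (4127644-4132616) lay in a row on chromosome 20. RT1-DMb (5227045-5234290) and RT1-DMa (5240975-5244386) lay farther along the same chromosome. Cd74 was on chromosome 18 (56071478-56080849) and Ciita on chromosome 10 (5213350-5260608). Values are FPKM, fragments per kilobase of transcript scaled to the depth of the library, summed over all transcripts of a gene name, so levels of different genes are compared per length. The reads behind the table, estimated from its coverage, lay between 35778600 and 41112700 per library. Genes named after RNA families of Rfam, mostly small structural RNAs, held 34.1% to 46.4% of the summed FPKM. Lung markers were high in every rat, with Sftpc (surfactant protein C) at 2410 FPKM or more and Ager (a type 1 cell marker) at 273 FPKM or more. How reads shared by RT1 genes of similar sequence were divided is not stated, so the split between RT1 copies is uncertain. Reads of these outbred rats were mapped to the reference genome. Whether sequence differences between rats changed the values of RT1 genes and transcripts was not tested. In whole lung, fewer cells of a type and less RNA per cell cannot be told apart.

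The first question was whether class II expression differed between PF model and control lungs. The sum of the 8 genes was 681, 861 and 624 FPKM in control rats 1 to 3 and 654, 824 and 909 FPKM in PF model rats 1 to 3, so the groups overlapped. It made up 0.195% to 0.289% of all FPKM outside the Rfam genes, the highest share being in PF model rat 3. A gene was called when its p was at most 0.05 and the ratio of its group means at least 1 on the log2 scale in either direction, the cutoffs of the study's own calls. Of the 8 members, 0 were called, against 1.52% of the 19645 genes tested, and 0 had an adjusted p below 0.05, against 0.0102% (limma with trend on log2(FPKM + 1), Benjamini-Hochberg). By the unadjusted p alone 0 members passed, against 4.91% of all genes. The groups did not overlap for 0 members, against 10.7% of all genes. Over all genes 130 were called higher and 168 lower, and after rescaling every library to the same total (TPM) 196 of 337 calls were higher. The log2 fold change was above 0 for 6 members, with a median of 0.09 beside -0.01 over all genes, and the adjusted p lay between 0.933 and 1.0. With 3 rats a group the intervals were wide for some members, so an absence of calls does not show equal levels.

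**Figure D2:**
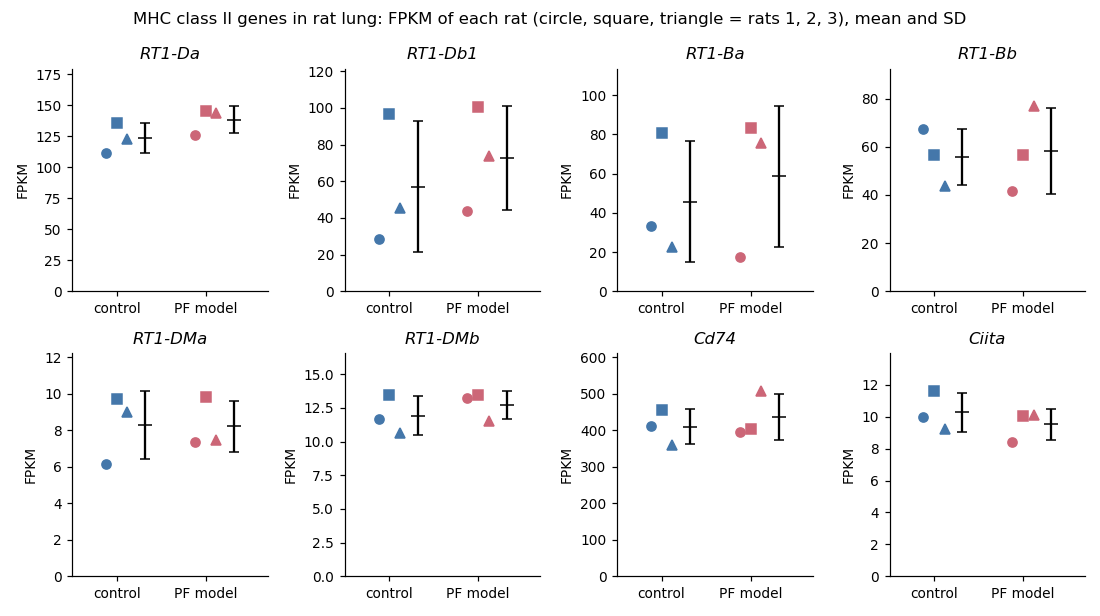
FPKM of each MHC class II gene in the 3 control rats (blue) and the 3 PF model rats (red), with the group mean and SD in black; circle, square and triangle stand for rats 1, 2 and 3 of a group. The groups overlap in every panel, and RT1-Db1 and RT1-Ba spread most within a group.

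RT1-Da encodes the alpha chain of RT1-D. Its level was 112, 136 and 123 FPKM in control rats and 126, 146 and 144 FPKM in PF model rats. The lowest PF model value lay under the highest control value, so the groups overlapped. The mean was 123 ± 12.1 FPKM in control and 139 ± 11.2 FPKM in PF model rats (SD, n = 3 each). The log2 fold change was 0.17 (SE 0.11, 95% interval -0.09 to 0.43, adjusted p = 0.933, limma). The annotated transcript of 5 exons, ENSRNOT00000048332, carried 86.1% to 96.4% of the gene's FPKM in every rat.

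RT1-Db1 encodes the beta chain that pairs with it. Its level was 28.7, 97.0 and 45.6 FPKM in control rats and 43.9, 101 and 74.0 FPKM in PF model rats. Rat 2 was the highest in both groups, and the ranges of the groups largely overlapped. The mean was 57.1 ± 35.5 FPKM in control and 72.9 ± 28.4 FPKM in PF model rats, and the log2 fold change was 0.45 (SE 0.48, 95% interval -0.72 to 1.61, adjusted p = 0.942, limma). The spread within groups, an SD of 0.75 on the log2 scale, was above that of 97.7% of the 14312 tested genes with a mean of at least 1 FPKM, whose median SD was 0.17. The transcript of 6 exons, ENSRNOT00000000522, carried 58.8% to 78.9% of the gene, with 16.9, 57.1 and 29.1 FPKM in control and 28.4, 60.6 and 58.4 FPKM in PF model rats. Single-exon assembled pieces inside its introns added 9.0% to 25.1% of the sum. The highest values of the intronic piece MSTRG.21319.1 were again in control rat 2 and PF model rat 2, at 9.06 and 10.1 FPKM, against 3.50 to 4.55 FPKM in the other rats. The neighbouring copy RT1-Db2 stayed between 0.0596 and 0.406 FPKM.

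RT1-Ba encodes the alpha chain of RT1-B and varied most of the members. Its level was 33.3, 80.6 and 22.8 FPKM in control rats and 17.4, 83.1 and 75.5 FPKM in PF model rats, a range of 4.76-fold. Each group thus held rats with low and with high values. The mean was 45.6 ± 30.8 FPKM in control and 58.7 ± 35.9 FPKM in PF model rats. The log2 fold change was 0.28 (SE 0.70, 95% interval -1.40 to 1.96, adjusted p = 0.977, limma), an interval that includes changes of more than 1 log2 unit in both directions. Its SD within groups, 1.08 on the log2 scale, was above that of 99.0% of genes.

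The transcripts of RT1-Ba also differed from rat to rat. The annotated transcript of 5 exons, ENSRNOT00000000523, was at 4.14, 66.8 and 6.85 FPKM in control and 7.05, 68.8 and 35.2 FPKM in PF model rats. It made up 82.9% of the gene in control rat 2 and 82.8% in PF model rat 2, but 12.4% in control rat 1. The assembled transcript of 3 exons MSTRG.21315.3 ran the other way, with 13.4, 1.25 and 11.4 FPKM in control and 6.22, 1.33 and 2.26 FPKM in PF model rats. A further assembled form of 4 exons, MSTRG.21315.4, was at 13.3 FPKM in control rat 1 and at 0.0179 FPKM or less in the other rats. The annotated form of 3 exons ENSRNOT00000077143 was at 33.4 FPKM in PF model rat 3, at 0.199 FPKM in PF model rat 1 and listed at 0 in the other 4 rats, and so it did not pass the filter for the transcript test. Control rat 2 and PF model rat 2 were thus near each other in total and in transcript make-up, whereas PF model rat 3 was near them in total but not in make-up. With annotated transcripts only, the log2 fold change of RT1-Ba was 1.18 (unadjusted p = 0.360, limma).

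RT1-Bb encodes the partner beta chain. Its level was 67.2, 56.4 and 43.6 FPKM in control rats and 41.5, 56.6 and 77.1 FPKM in PF model rats. The PF model rats held both the lowest and the highest value. The mean was 55.7 ± 11.8 FPKM in control and 58.4 ± 17.8 FPKM in PF model rats, with a log2 fold change of 0.04 (SE 0.25, 95% interval -0.56 to 0.65, adjusted p = 0.995, limma). The order of the rats for RT1-Ba and RT1-Bb was alike in part. Control rat 3 and PF model rat 1 were the lowest for both genes and PF model rat 3 was high for both, but control rat 1 had 67.2 FPKM of RT1-Bb and 33.3 FPKM of RT1-Ba, and control rat 2 had 56.4 and 80.6 FPKM. The transcript of 6 exons ENSRNOT00000000525 carried 59.7% to 85.2% of the gene. A short transcript of 2 exons, ENSRNOT00000083231, was at 5.39, 4.43 and 6.63 FPKM in control and 2.07, 4.96 and 1.13 FPKM in PF model rats, which overlapped (log2 fold change -0.92, unadjusted p = 0.060, adjusted p = 0.945, limma).

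RT1-DMa and RT1-DMb encode the chains of RT1-DM, the peptide-loading helper, and were far lower. RT1-DMa was at 6.16, 9.73 and 8.97 FPKM in control and 7.35, 9.82 and 7.47 FPKM in PF model rats. The means of 8.29 ± 1.88 and 8.21 ± 1.40 FPKM were apart by less than the spread (log2 fold change -0.00086, SE 0.19, 95% interval -0.45 to 0.45, limma). The make-up of the gene differed in PF model rat 3. There the annotated transcript of 5 exons ENSRNOT00000070886 was at 0.789 FPKM, against 3.72 to 6.09 FPKM in the other rats, and the assembled transcript of 4 exons MSTRG.21370.3 was at 6.18 FPKM, against 1.60 to 3.74 FPKM. The assembled form thus held 82.8% of RT1-DMa in that rat and 19.2% to 38.1% in the other 5. With annotated transcripts only, the log2 fold change of RT1-DMa was -0.56 (unadjusted p = 0.287, limma).

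RT1-DMb was at 11.6, 13.5 and 10.6 FPKM in control and 13.2, 13.5 and 11.5 FPKM in PF model rats. The means were 11.9 ± 1.44 and 12.7 ± 1.06 FPKM, and the log2 fold change was 0.09 (SE 0.11, 95% interval -0.18 to 0.36, adjusted p = 0.946, limma). The groups of a single-exon transcript of the gene, ENSRNOT00000086240, did not overlap. It was at 1.51, 1.14 and 1.71 FPKM in control and 0.731, 1.07 and 0.878 FPKM in PF model rats (log2 fold change -0.37, unadjusted p = 0.069, adjusted p = 0.945, limma).

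Cd74 was the most abundant member. Its level was 412, 456 and 361 FPKM in control and 396, 405 and 509 FPKM in PF model rats, with the lowest value in a control rat and the highest in PF model rat 3. The means of 410 ± 48.0 and 437 ± 63.0 FPKM gave a log2 fold change of 0.09 (SE 0.16, 95% interval -0.29 to 0.47, adjusted p = 0.966, limma). This gene had the most reads of the set, an estimated 19586 to 26020 per rat, against 307 to 465 for RT1-DMa. The invariant chain has a shorter and a longer form, and the longer one holds a thyroglobulin-type domain. The transcript of 9 exons, ENSRNOT00000025354, was at 97.3, 108 and 88.3 FPKM in control and 98.4, 100.5 and 125 FPKM in PF model rats. Its share of the gene lay between 23.6% and 24.9% in all 6 rats, and the transcript of 8 exons, ENSRNOT00000025344, held the rest.

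Ciita was at 9.98, 11.6 and 9.21 FPKM in control and 8.42, 10.1 and 10.1 FPKM in PF model rats. The highest value was in control rat 2, and the groups overlapped. The means were 10.3 ± 1.25 and 9.53 ± 0.961 FPKM, and the log2 fold change was -0.10 (SE 0.12, 95% interval -0.39 to 0.19, adjusted p = 0.945, limma). Single-exon pieces inside introns held 47.2% to 62.0% of this sum. Without them the gene was at 3.797, 4.59 and 4.83 FPKM in control and 3.78, 5.32 and 4.72 FPKM in PF model rats, and the log2 fold change turned to 0.05 (SE 0.15, adjusted p = 0.987, limma).

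Ciita is known to be transcribed from several alternative promoters in different cell types, and the table holds 3 annotated transcripts of 19 exons, which are not assigned to promoters here. ENSRNOT00000085310 was at 1.31, 0.0965 and 1.65 FPKM in control and 2.70, 2.001 and 1.42 FPKM in PF model rats. ENSRNOT00000085479 was at 0.720, 0.0144 and 1.83 FPKM in control and 0.00356, 1.87 and 2.38 FPKM in PF model rats. ENSRNOT00000003572 was listed at 0 in control rat 2 and lay between 0.752 and 1.39 FPKM in the other rats. In control rat 2, where these 3 were lowest in sum, the assembled transcript of 18 exons MSTRG.4709.1 was at 4.48 FPKM, against 0.0586 to 0.547 FPKM elsewhere. The total without the intronic pieces was 4.59 FPKM there, within the range of the other rats.

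**Figure D3:**
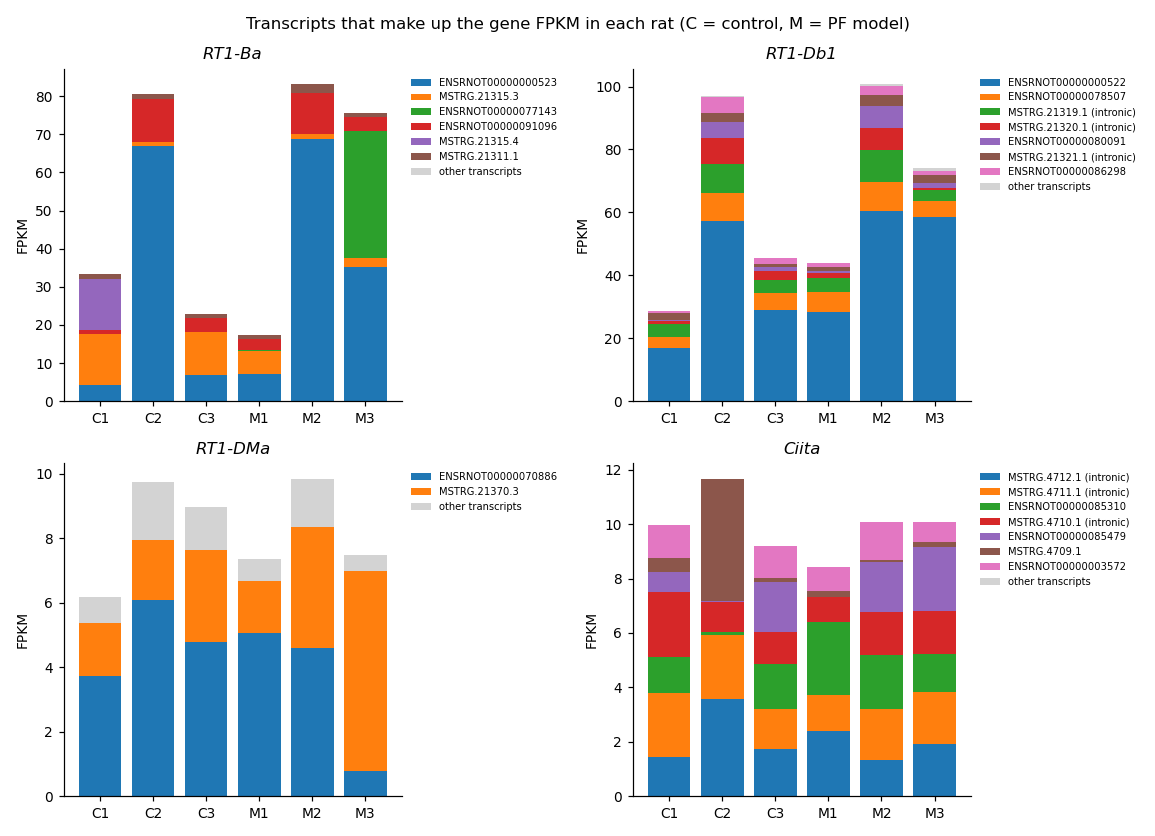
FPKM of the transcripts of RT1-Ba, RT1-Db1, RT1-DMa and Ciita, stacked to the gene sum, in control rats (C1 to C3) and PF model rats (M1 to M3). The RT1-Ba total and make-up differ between rats within each group, MSTRG.21370.3 has its highest share of RT1-DMa in M3, and MSTRG.4709.1 its highest share of Ciita in C2.

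Over all 43 transcripts of the members, 32 were annotated and 11 assembled, 6 of them inside introns. Of these, 41 passed the filter of an FPKM above 0 in at least 3 of the 6 rats, and 2 did not. The calls numbered 0, against 2.98% of the 64867 transcripts tested, and 0 had an adjusted p below 0.05, against 0.0277%. At an unadjusted p of 0.05 there were also 0, against 4.53% of all transcripts. Groups that did not overlap were seen for 1, the RT1-DMb transcript above, against 10.4% of all. The median log2 fold change was 0.05 beside -0.02 over all transcripts tested. The share of all transcripts called with 1 rat left out is not given here, so such calls are no result about the members. Leaving out 1 rat at a time brought 1 call for each of 3 rats, beside 2.98% of all transcripts with all 6 rats. These were MSTRG.21315.3 of RT1-Ba without control rat 2 (log2 fold change -1.82), MSTRG.21370.3 of RT1-DMa without PF model rat 1 (0.92) and ENSRNOT00000083231 of RT1-Bb without PF model rat 2 (-1.33), with adjusted p of 0.952, 0.949 and 0.504 (limma).

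**Figure D4:**
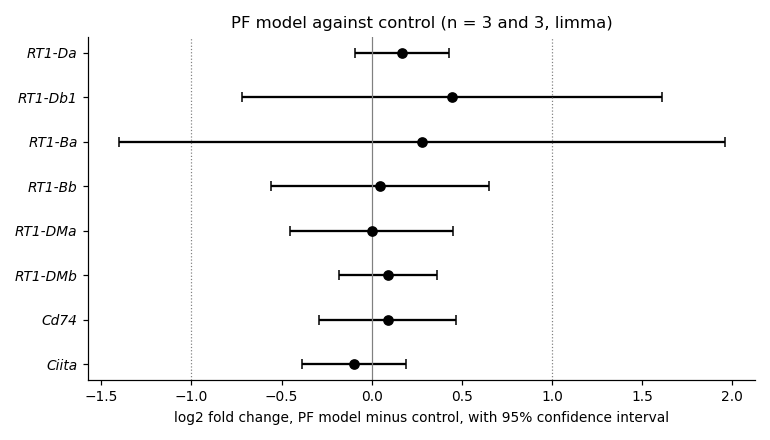
The log2 fold change of each member, PF model minus control, with its 95% confidence interval (limma on log2(FPKM + 1), n = 3 and 3); dotted lines mark 1 log2 unit in each direction. All 8 intervals include 0, and those of RT1-Db1 and RT1-Ba are the widest.

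The order of the levels per length was Cd74, RT1-Da, RT1-Db1, RT1-Bb, RT1-Ba, RT1-DMb, Ciita and RT1-DMa, by the mean over the 6 rats. Cd74 (mean 423 FPKM), RT1-Da (131 FPKM) and RT1-Db1 (65.0 FPKM) were in this order in 6 of 6 rats without overlap of their ranges. RT1-Db1, RT1-Bb (57.1 FPKM) and RT1-Ba (52.1 FPKM) overlapped, each neighbour being higher in 4 of 6 rats. RT1-Ba lay above RT1-DMb (12.3 FPKM) without overlap. RT1-DMb, Ciita (9.90 FPKM) and RT1-DMa (8.25 FPKM) kept their order in 6 of 6 rats although their ranges overlapped. This order counts the intronic pieces. Without them RT1-Db1 had a mean of 53.3 FPKM and lay below RT1-Bb in 4 of 6 rats, and Ciita had a mean of 4.51 FPKM and lay below RT1-DMa in 6 of 6 rats.

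Since a class II molecule needs both chains, the ratio of alpha to beta chain transcripts was compared, a ratio within a library that does not depend on its scaling. RT1-Da/RT1-Db1 was 3.88, 1.40 and 2.70 in control and 2.86, 1.45 and 1.95 in PF model rats, lowest in rat 2 of both groups. RT1-Ba/RT1-Bb was 0.496, 1.43 and 0.523 in control and 0.420, 1.47 and 0.980 in PF model rats, so the alpha chain exceeded the beta chain in 1 rat of each group. RT1-DMa/RT1-DMb stayed between 0.529 and 0.842, and the ratio of Cd74 to the sum of the 4 classical chains between 1.048 and 1.73. The log2 differences, PF model minus control, were -0.29, 0.24, -0.10 and -0.13 in this order. The exact permutation test over 20 regroupings (2-sided) gave p = 0.8, 0.9, 0.8 and 0.7, each 0.9 after adjustment over the 4 ratios, and cannot give less than 0.1 with 3 against 3. From annotated transcripts only, the difference was 1.21 for RT1-Ba/RT1-Bb (exact permutation p = 0.4), -0.86 for RT1-DMa/RT1-DMb (p = 0.3), -0.39 for RT1-Da/RT1-Db1 and -0.20 for Cd74 over the classical chains.

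From rat to rat the members moved unequally. The mean of the 8 centred log2 values was -0.22, 0.29 and -0.26 in control rats and -0.31, 0.27 and 0.23 in PF model rats. In control rat 2 all 8 members were above their own mean, by 0.02 for RT1-Bb to 0.87 for RT1-Ba. In PF model rat 2, 7 were above it and Cd74 below (-0.06). In PF model rat 1, 7 were below it and RT1-DMb above (0.10). The chains RT1-Ba and RT1-Db1 made most of these swings, while RT1-Da, RT1-DMb, Cd74 and Ciita had SDs within groups between 0.13 and 0.19, near the median of all genes.

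**Figure D5:**
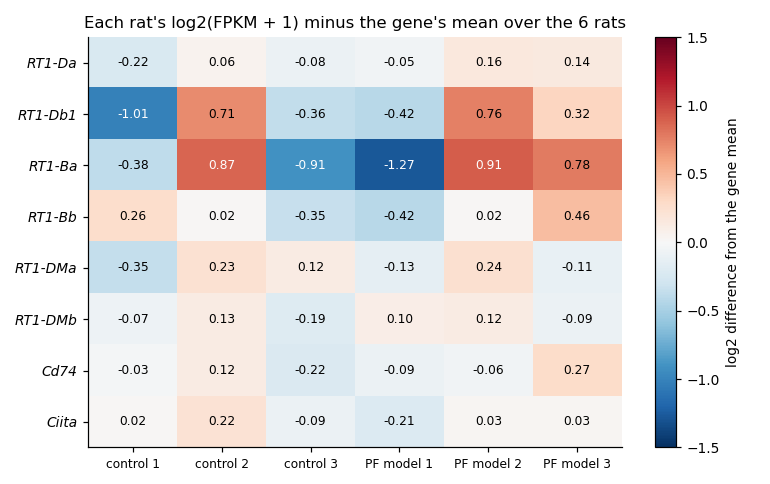
Each rat's log2(FPKM + 1) of a member minus the gene's mean over the 6 rats (red above, blue below). RT1-Ba ranges from -1.27 in PF model rat 1 to 0.91 in PF model rat 2 and RT1-Db1 from -1.01 to 0.76, while Cd74 lies between -0.22 and 0.27 and Ciita between -0.21 and 0.22.

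The other 7 members were correlated with Cd74 over the 6 rats, whose values share a source and its scaling. Pearson's r was highest for RT1-Bb, at 0.79 (rho 0.77, permutation p = 0.0583 and 0.103), and lowest for RT1-DMa, at -0.11 (rho -0.03, permutation p = 0.842 and 1.0). RT1-Ba had r = 0.69, Ciita 0.57, RT1-Da 0.52, RT1-Db1 0.45 and RT1-DMb 0.17. For Ciita, the regulator of Cd74, rho was 0.83 (permutation p = 0.0583). Intronic pieces held 47.2% to 62.0% of this Ciita sum, and the order of the rats differs without them. Ciita was then highest in PF model rat 2 (5.32 FPKM), and at 4.83 FPKM in control rat 3, the rat with the lowest Cd74. The correlation without these pieces is not given here, so the values for Ciita do not show that it tracks Cd74. None of the 7 passed after adjustment, the lowest adjusted p being 0.408 for r and 0.360 for rho (exact permutation over 720 pairings). Without control rat 3 and PF model rat 3, which lay farthest from the Cd74 median, r was 0.37 for RT1-Bb and 0.90 for Ciita. Leaving out the extremes of Cd74 narrows its range, so these values of few rats are a description only. As TPM without Rfam genes r was 0.19 for RT1-Ba, -0.05 for RT1-Db1 and -0.63 for RT1-DMa, so these values depend on the scaling.

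Among 14312 other genes with a mean of at least 1 FPKM, the 10 with the profile most like the mean of the members were LOC103693430, Bloc1s3, Cfap73, Qsox1, Cabin1, AABR07044414.1, Glt8d2, LOC103689965, Btbd11 and Vom2r26. Likeness was the root mean square distance of the centred log2 values over the 6 rats, which was 0.04 for LOC103693430 and 0.10 for Vom2r26. LOC103693430 was at 4.63, 7.02 and 4.55 FPKM in control and 4.24, 6.67 and 7.10 FPKM in PF model rats. With 6 points and this many genes, close profiles are a description only.

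The other genes of the pathway were read from lists. Of 122 genes found in the lists other than the members, 121 were tested. The calls numbered 0, against 1.52% of all genes, and 0 had an adjusted p below 0.05, against 0.0102%. An unadjusted p of at most 0.05 was seen for 4 (limma), against 4.91% of all genes. Of the 14 genes for processing of antigen and turnover of surface class II, 10 were higher in PF model rats, with a median log2 fold change of 0.09, and 3 had an unadjusted p of at most 0.05. The groups were apart for 3 of the 14, against 10.7% of all genes, and these were Cd63, Ctsh and Ctsl. Cd63, a tetraspanin of class II compartments, was at 30.7, 30.3 and 30.4 FPKM in control and 37.2, 34.7 and 38.7 FPKM in PF model rats, without overlap (log2 fold change 0.27, unadjusted p = 0.0078, adjusted p = 0.933, limma). Ctsh, an endosomal protease, was at 119 to 149 FPKM in control and 156 to 159 FPKM in PF model rats, also without overlap (0.25, unadjusted p = 0.047). Ctsd, another endosomal protease, was at 80.4 to 92.2 FPKM in control and 90.1 to 112 FPKM in PF model rats (0.28, unadjusted p = 0.043). Ctsl, a further endosomal protease, was at 33.1 to 34.9 FPKM in control and 30.5 to 32.5 FPKM in PF model rats (-0.10, unadjusted p = 0.182). Ctsb, an abundant protease, had a log2 fold change of 0.14 (unadjusted p = 0.329). Ctss, the protease that trims the invariant chain, was at 10.9 to 13.0 FPKM in all rats.

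The RT1-DM inhibitor genes were low and overlapping, RT1-DOa at 1.93 to 2.79 FPKM and RT1-DOb at 4.30 to 7.53 FPKM, and the 4 further class II region genes had a median log2 fold change of 0.02. Of the 18 regulators of class II genes found, 5 were higher and 13 were not, with a median of -0.05. Ifngr1, a chain of the interferon gamma receptor, was at 45.7 to 45.9 FPKM in control and 46.4 to 53.0 FPKM in PF model rats (log2 fold change 0.09, adjusted p = 0.933, limma). Spi1, a myeloid transcription factor, had a log2 fold change of 0.15 and Jak2, a kinase of the same receptor, of -0.30, both with adjusted p = 0.933. The 22 genes of the class I pathway had a median of -0.01. B2m, the class I light chain, was at 200 to 244 FPKM in control and 188 to 201 FPKM in PF model rats (-0.20, adjusted p = 0.933, limma). Some class I heavy chains also differed widely between rats. RT1-CE4 was at 44.3, 174 and 123 FPKM in control and 104, 162 and 98.7 FPKM in PF model rats. RT1-A2, named after its values were seen, was at 3.36, 33.9 and 40.3 FPKM in control and 45.2, 83.7 and 38.6 FPKM in PF model rats. The 5 co-stimulatory genes had a median of -0.05, and Cd40 was at 6.64 to 8.65 FPKM in all rats.

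Markers of the cells that carry class II were set beside these values. The summed B cell markers were at 13.8 to 27.6 FPKM in control and 16.0 to 27.7 FPKM in PF model rats, with 7 of 8 genes found and 3 higher. The dendritic cell markers summed to 36.8 to 48.6 and 39.5 to 46.8 FPKM, with 10 of 10 found and 6 higher. Groups were apart for 2 of these 10, in opposite directions, against 10.7% of all genes. Batf3 was lower in PF model rats (log2 fold change -0.29, unadjusted p = 0.060, limma). Clec10a was higher (0.30, unadjusted p = 0.066, limma), and both had adjusted p = 0.933. The macrophage and monocyte markers summed to 55.1 to 76.0 and 54.3 to 79.6 FPKM, with 7 of 10 found and 3 higher. Cd68, a macrophage marker, was at 1.304 FPKM in control rat 3 and 1.21 FPKM in PF model rat 2, against 20.7 to 22.8 FPKM in the other rats, whereas Csf1r lay between 24.1 and 30.4 FPKM in all 6. The low ends of the macrophage and monocyte sum were in control rat 3 and PF model rat 2, so its range largely follows Cd68. The alveolar type 2 cell markers were higher in 8 of 8, with a median log2 fold change of 0.20, and summed to 4595 to 6361 and 5410 to 6981 FPKM, and 0 of them had an unadjusted p of at most 0.05 (limma). No list of these showed groups apart in its sum. By rat, the B cell sum was 13.8, 27.6 and 22.9 FPKM in control and 16.0, 17.4 and 27.7 FPKM in PF model rats. The class II sum was 681, 861 and 624 FPKM in the same control rats and 654, 824 and 909 FPKM in the PF model rats. The part of cell composition in the class II levels was not tested.

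The remaining lists gave T cell markers with a median log2 fold change of -0.06, type 1 cell markers of 0.09, endothelial markers of -0.04, airway epithelial markers of -0.06 and fibroblast markers of 0.06. The fibroblast sum was the single one of the lists whose groups were apart, at 293 to 311 FPKM in control and 317 to 411 FPKM in PF model rats. Groups were apart for 10.7% of all single genes, so 1 list sum apart is not unusual. Of its 6 genes 3 were higher, the collagen chains Col1a1 (log2 fold change 0.19), Col1a2 (0.22) and Col3a1, and 3 were lower, Pdgfra (-0.06), Dcn (-0.13) and Lum (-0.10). The abundant collagens thus carried the sum. Col3a1, a fibrillar collagen, was at 174, 178 and 154 FPKM in control and 189, 204 and 233 FPKM in PF model rats (log2 fold change 0.30, unadjusted p = 0.037, adjusted p = 0.933, limma). The class II sum was not apart in the same rats.

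Circular RNA of the members was barely detected. Among 5216 circular RNAs, 1 came from a member, a single-exon circle of RT1-Ba (chromosome 20, 4066948-4067229, in the deposited coordinates). It had 1 back-splice read in control rat 2 and 1 in PF model rat 2, the rats with the highest RT1-Ba level of their groups, and 0 in the other 4. A total of 2 reads gives no basis for a comparison.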

How the data were processed

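RNA of rat lung was measured in 6 libraries, grouped by the condition in the labels (control or PF model). After trimming (Cutadapt) and mapping with Bowtie2 and Tophat2 (the labels also name HISAT2), the authors merged StringTie assemblies of all libraries and deposited, for each transcript, FPKM estimated with StringTie and Ballgown. The deposited coverage of each transcript, a signal not scaled for library size, served only to estimate reads, as coverage times length over the read length. The authors deposited counts of back-splice reads for circular RNAs. The libraries are described as stranded, but whether strand was used in quantification is not given in the sources used here. FPKM of transcripts sharing a gene name were summed, which counts short intronic pieces in full.

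A gene or transcript needed a non-zero FPKM in 3 or more of the 6 libraries, and those that passed were fitted with limma 3.58.1 (trend, 2-sided) in R 4.3.3 on log2(FPKM + 1), which understates changes of low genes. Ratios and correlations were tested by exact permutation. The fit was tested on simulated data. The members and lists were chosen with earlier results of these data known. Named were the 8 members, their transcripts with a mean of at least 1 FPKM in either group, from each list genes called, the 3 most abundant and the 2 with the smallest p, and the 10 genes of most similar profile. Of the list genes so named, those bearing on class II are described. The columns of the authors' circular RNA values normalized by library totals were not used.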

Additional observations from a re-analysis of the deposited data

How the results depend on the processing

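The 8 members had 0 calls under every alternative tried, by either rule. Among these, the exact permutation test of the mean FPKM cannot give less than 0.1 with 3 against 3, so it could make no call. Of 128 log2 fold changes of single members under alternatives, 111 kept their direction and 17 turned, with a lowest adjusted p of 0.863. Part of the 111 could not turn. Other filters on low values, limma without trend and the replicate block leave these log2 fold changes unchanged by design. The same holds for leaving out assembled or intronic transcripts in members that have none, so the 111 overstate how stable the directions are. Apart from single rats left out, the turned ones were RT1-DMa, which went to 0.00067 with a pseudocount of 0.1, 0.0796 as TPM, 0.0529 as TPM without Rfam genes and 0.0658 as a length-weighted sum, and Ciita, which went to 0.86 with annotated transcripts only and to 0.0482 without intronic transcripts, an alternative chosen after seeing the data. Annotated transcripts only also moved RT1-Ba to 1.18 and RT1-DMa to -0.56. Rescaling moved the median of all genes by 0.06 (TPM) and 0.04 (TPM without Rfam genes), and 7 of 8 members were then higher. Leaving out 1 rat gave log2 fold changes of 0.10 to 0.24 for RT1-Da, 0.05 to 0.91 for RT1-Db1, -0.11 to 0.98 for RT1-Ba, -0.18 to 0.26 for RT1-Bb, -0.18 to 0.11 for RT1-DMa, 0.02 to 0.18 for RT1-DMb, -0.0276 to 0.17 for Cd74 and -0.17 to -0.01 for Ciita. It gave 0 to 1 called transcripts and 0 to 1 called list genes (Ifng without PF model rat 1, Cd82 without PF model rat 2). Ifng was near the floor, at 0 to 0.501 FPKM, and the shares of all features called in these fits are not given here. The log2 ratio differences with 1 rat left out were -0.69 to 0.0460 for RT1-Da/RT1-Db1 and -0.16 to 0.74 for RT1-Ba/RT1-Bb. They were -0.28 to 0.0522 for RT1-DMa/RT1-DMb and -0.30 to 0.0587 for Cd74 over the classical chains. Annotated transcripts alone gave ratio differences of 1.21 for RT1-Ba/RT1-Bb and -0.86 for RT1-DMa/RT1-DMb. They also gave 2 list calls, RT1-A2 and Cd82, both with adjusted p = 0.972 (limma). The share of all genes called in that fit is not given here either, so these calls are no result about the lists. As TPM without Rfam genes the correlation with Cd74 turned to -0.0472 for RT1-Db1 and moved to 0.19 for RT1-Ba and -0.63 for RT1-DMa, and RT1-DMa turned to 0.44 without 2 rats. The cause of these shifts was not tested.

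Deviations of same-numbered rats correlated at 0.06, 0.03 and -0.08 over genes, and those of differently numbered rats between -0.13 and 0.10. With 3 rats a group these values cannot show whether replicate numbers pair the rats. With the replicate number as a replicate block the members again had 0 calls, the transcripts 0 and the lists 0, and RT1-Db1 had a log2 fold change of 0.45 (unadjusted p = 0.038, adjusted p = 0.924, limma). The ratio differences in the replicate block were -0.29, 0.24, -0.10 and -0.13. A balanced block cannot change a difference of group means, so these equal the values without it and are no check. Precision is limited by 3 rats a group and, for RT1-DMa, by an estimated 307 to 465 reads.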
